A study of Mus musculus with 18 samples.

Results

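The 9 genes described here (Wt1, Tbx18, Upk1b, Upk3b, Msln, Krt8, Krt18, Krt19 and Muc16) are markers of the epicardium, the mesothelial layer on the outer surface of the heart. They were taken by name from the 30583 genes of the count table, and all 9 were found there. The data are RNA sequencing of poly(A) RNA from 18 male C57BL/6JR mice aged 12 weeks, with 1 library per mouse. In 15 of them the left anterior descending artery of the heart was tied to cause a myocardial infarction, and hearts were taken after 10 min, 1, 6, 24 or 72 h, 3 mice per time. The 3 sham mice underwent the same surgery and the suture was passed but left untied. All 6 groups thus share anaesthesia and the opening of the chest, and no group of unoperated mice was analysed here. The sham group is listed at 0 h and has no counterpart at the later times. Ligation and time after surgery thus cannot be told apart in comparisons with sham. RNA came from the infarcted region of the left ventricle. The labels also give cardiomyocytes as the cell type, but no separation of cells is described, and cardiomyocyte, endothelial, fibroblast and leukocyte markers were all present in all libraries, so the libraries are treated as whole tissue. In such bulk samples, fewer cells of a type and less RNA per cell cannot be told apart.

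The epicardium arises in the embryo from the proepicardium, and Wt1 and Tbx18 are transcription factors used to trace that lineage. In the adult heart the layer is thin and largely quiescent, and after infarction epicardial cells are known to divide, thicken the layer and secrete factors into the muscle below. Mesothelial cells are unusual in combining an epithelial keratin skeleton (Krt8, Krt18 and Krt19) with surface proteins shared with other lining cells, such as mesothelin (Msln), its binding partner mucin 16 (Muc16) and the uroplakins Upk1b and Upk3b. Wt1 is also known from endothelial cells after ischaemia, and Krt8 and Krt18 from stressed cells of several kinds, so not every member marks mesothelium alone.

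Libraries held 18.2 to 25.1 M counts (M for mega). Replicate 1 at 6 h stood apart: the atrial genes Sln, Myl7 and Myl4 had 715, 827 and 992 counts there, against at most 8, 35 and 73 in any other library, and it is called the library with atrial genes below. Levels are given as CPM (counts per M counts, scaled by TMM), folds as log2, and called means an edgeR p under 0.05 after adjustment over the 16311 genes tested. All 9 members passed the filter on low counts, and each also reached the minimum of 0.459 CPM in at least 3 libraries outside the 72 h group. Genes of the other lists were not checked by library in this way, and some that were low outside 72 h passed through that group. Scaling by library totals in place of TMM moved the median of all genes by 0.19 at 24 h and 0.58 at 72 h on the log2 scale, and by -0.11 at 6 h, so changes below are relative to the bulk of genes.

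All members were low in this tissue. Per length, in FPKM (fragments per kilobase and M counts), Msln had 1.57 ± 0.579 (SD, n = 3) in sham and Upk3b 1.53 ± 0.835, followed by Wt1 at 1.01 ± 0.197 and Tbx18 at 0.84 ± 0.106. The ranges of these 4 neighbours overlapped in turn. Krt19 lay below them at 0.395 ± 0.17, with a range that did not meet that of Tbx18, and Upk1b, Krt8 and Krt18 had 0.279, 0.217 and 0.182 FPKM. Muc16, whose exons span 26350 bases, was lowest at 0.0248 ± 0.00643. At 72 h the order had changed to Msln, Krt18, Krt8, Upk3b, Krt19, Tbx18 and Upk1b, at 5.92 to 2.72 FPKM with each overlapping its neighbour, and Wt1 had moved from the third to the eighth place at 1.14 ± 0.347.

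The members lie apart in the genome (GENCODE M21, GRCm38), except Krt8 and Krt18, which are neighbours on chromosome 15. Krt8 (ENSMUSG00000049382) occupies chr15:101996698-102004482 on the minus strand and Krt18 (ENSMUSG00000023043) chr15:102028180-102032027 on the plus strand. The others are Wt1 (chr2:105126529-105173616, plus strand), Tbx18 (chr9:87702800-87731260, minus), Upk1b (chr16:38773184-38800328, minus), Upk3b (chr5:136038496-136046487, plus), Msln (chr17:25748613-25754378, minus), Krt19 (chr11:100140810-100148665, minus) and Muc16 (chr9:18495455-18674530, minus). The proteins of Krt8 and Krt18 pair into the same filaments, and they had the 2 largest rises at 72 h. The windows around the RefSeq start sites (GRCm38.p6) are shown because both genes of this pair rose at 72 h and, for Upk3b, to set a mesothelial surface gene beside them. Each runs 5′ to 3′ from 250 bases before the start to 30 bases after it. Capitals mark the letters TATAAA in Krt8 and GGAATG in Upk3b, on either strand.
Krt8: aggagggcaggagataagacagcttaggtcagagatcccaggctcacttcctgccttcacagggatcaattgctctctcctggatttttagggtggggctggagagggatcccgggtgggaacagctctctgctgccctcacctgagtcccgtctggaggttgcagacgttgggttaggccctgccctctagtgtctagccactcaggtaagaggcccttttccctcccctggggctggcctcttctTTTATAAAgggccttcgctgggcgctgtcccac
Krt18: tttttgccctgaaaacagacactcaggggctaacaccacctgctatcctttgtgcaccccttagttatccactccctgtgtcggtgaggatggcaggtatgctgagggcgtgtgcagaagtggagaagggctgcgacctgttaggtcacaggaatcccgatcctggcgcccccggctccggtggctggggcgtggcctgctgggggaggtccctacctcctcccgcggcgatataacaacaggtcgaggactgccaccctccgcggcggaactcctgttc
Upk3b: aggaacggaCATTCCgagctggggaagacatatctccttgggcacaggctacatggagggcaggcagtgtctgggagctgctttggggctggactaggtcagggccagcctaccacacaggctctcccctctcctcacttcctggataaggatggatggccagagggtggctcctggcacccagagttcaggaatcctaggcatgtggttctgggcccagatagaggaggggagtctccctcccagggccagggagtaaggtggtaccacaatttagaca
The positions are chr15:102004313-102004592 (minus strand), chr15:102027966-102028245 and chr5:136038246-136038525. In Krt8 2 overlapping matches to TATAAA, 1 on each strand, lie across the annotated start. In Upk3b the match lies 241 bases before it, on the other strand. Promoter entries were matched for 5 members (also Tbx18 and Muc16), and 14 motifs were searched on both strands in 300 bases, with overlapping matches counted. Of all 32544 promoter windows, 13.6% held the TATA box letters and 14.6% those named for TEAD factors. Of the other motifs searched, the KLF letters CACCC were found in 57.7% of windows and in all 5 members. The WT1 letters GGGGGAGG were found in 8.34% and in Tbx18 and Krt18. The CCAAT box was found in 37.4% and in Tbx18, and the letters AGATAAG, bound by GATA factors, in 3.02% and in Krt8. The remaining 8 had no match in the 5 members: the AP-1 letters TGANTCA (7.79% of windows), the EGR letters GCGTGGGCG (0.618%), the GC box GGGCGG (35.9%), the CRE letters TGACGTCA (1.8%), the ETS letters CCGGAAG (8.91%), the SRF box (0.0645%), the T-box letters AGGTGTGA (1.28%) and the NF-kB letters GGGNNTTCC (5.85%). No match says only that the letters are not in the window.

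Wt1, a zinc finger transcription factor, was called higher than sham once, at 6 h. Sham libraries had 6.11, 6.06 and 7.99 CPM and 6 h libraries 20.8, 8.46 and 10.9, so the groups did not overlap, and the library with atrial genes was the highest. The log2 fold change was 0.99 ± 0.28 (SE) with an edgeR adjusted p of 0.0158. Without that library it was 0.52 with an adjusted p of 0.148. The call was also lost without sham replicate 1 (0.0616) or 2 (0.0596), with only the 6 libraries compared (0.0673) and by limma on FPKM (0.0736). Of 6 endothelial markers Pecam1 was called higher at 6 h (0.68 ± 0.12, adjusted p = 0.000579) and 1 other was lower. The summed level of the 6 was 1647 CPM in the library with atrial genes, 1221 and 1388 in the other 6 h libraries and 1214 to 1345 in sham, and the part of endothelial cells in the Wt1 rise was not tested. At 24 h the 3 libraries lay at 4.49 to 5.31 CPM, below all sham libraries, a log2 difference of -0.48 ± 0.29 that did not pass (adjusted p = 0.199). The fall from 6 h to 24 h did pass, at -1.46 ± 0.29 (adjusted p = 0.00153), and was called in every alternative run, at -1.0 without the library with atrial genes. At 72 h Wt1 had 7.03, 3.99 and 4.32 CPM, with a log2 difference of -0.40 ± 0.29 from sham that did not pass and that turned to 0.18 when libraries were scaled by their totals.

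Tbx18, a T-box transcription factor that is also known from pericytes, was called higher than sham at 72 h and at none of the 4 earlier times. It had 3.79, 4.35 and 4.66 CPM in sham and 9.08, 10.1 and 11.7 at 72 h, with no overlap. The log2 fold change was 1.27 ± 0.18 (adjusted p = 4.84e-06), and it was called in every alternative run. From 10 min to 24 h the 12 libraries ran from 4.07 to 6.75 CPM, and no difference from sham passed. Its exons share 970 bases with an annotated transcript on the other strand, D030062O11Rik, which had 97 counts in all 18 libraries together. The use of strand in counting is not given in the sources used here, so reads of the 2 cannot be told apart. Between 6 h and 72 h Wt1 fell by 1.38 on the log2 scale (adjusted p = 0.000395) and Tbx18 rose by 1.04 (adjusted p = 4.91e-05). Without the library with atrial genes the fall of Wt1 was -0.93 and was still called, and by limma on FPKM it did not pass (adjusted p = 0.0632).

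**Figure D1:**
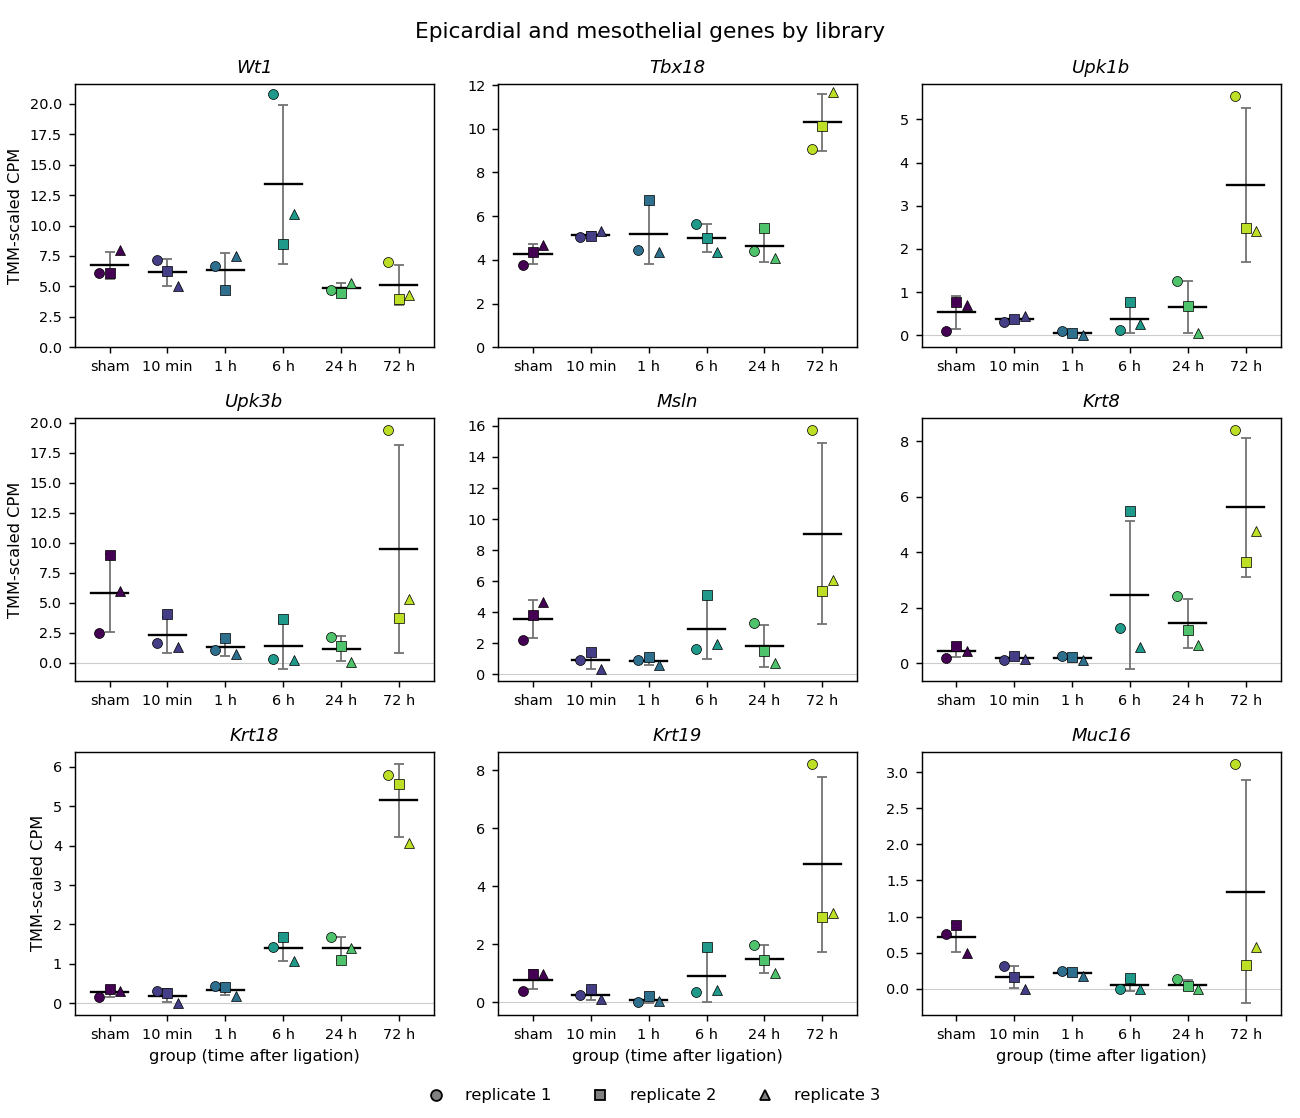
TMM-scaled CPM (y axis, linear) of each of the 9 genes by group (x axis); symbols are the 3 libraries of a group, black lines the means and grey bars the SD (n = 3). Wt1 has its highest mean at 6 h. For Tbx18, Upk1b, Msln, Krt18 and Krt19 the 72 h libraries all lie above those of every other group. Replicate 1 at 72 h is the highest of its group for 8 of the 9 genes, all but Tbx18.

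Msln encodes the glycosylphosphatidylinositol-anchored surface protein mesothelin. Its CPM was 2.22, 3.84 and 4.66 in sham, then 0.933, 1.47 and 0.335 at 10 min and 0.917, 1.12 and 0.583 at 1 h. All 6 early libraries lay below all 3 sham libraries, with log2 differences of -1.92 ± 0.66 and -2.03 ± 0.67, but neither passed (adjusted p = 0.509 and 0.596). With only the 6 libraries of each comparison in the fit they did pass, at 0.0448 and 0.00354. At 72 h Msln had 15.8, 5.36 and 6.07 CPM, all above sham, with a log2 fold change of 1.34 ± 0.55 (adjusted p = 0.0449). That call was lost in 3 of the 8 other settings and without any one of the sham libraries or 72 h replicate 1, where the log2 fold change was 0.67 with an adjusted p of 0.295. With the replicate number as a block it was 1.20 (adjusted p = 0.0668).

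Upk3b, a uroplakin that is among the standard markers of mesothelium, varied widely between mice of 1 group. It had 2.53, 9.02 and 5.99 CPM in sham, 0.298, 3.63 and 0.266 at 6 h, 2.16, 1.38 and 0.0515 at 24 h and 19.5, 3.71 and 5.34 at 72 h. The 24 h libraries all lay below sham (log2 difference -2.24 ± 0.99, adjusted p = 0.0848), whereas at 72 h replicates 2 and 3 lay within the sham range and replicate 1 above it. The 72 h difference of 0.70 ± 0.87 (adjusted p = 0.495) turned to -0.37 without replicate 1. The 6 h difference did not pass (adjusted p = 0.152), but without replicate 2 at 6 h it was -4.35 and passed (adjusted p = 0.0244). Between 24 h and 72 h Upk3b rose by 2.94 ± 0.99 (adjusted p = 0.0235), and without 72 h replicate 1 the difference was 1.88 and did not pass (adjusted p = 0.138). That call was also lost without 24 h replicate 2 (0.0518) or 3 (0.0645). A copy of this gene, Upk3bl, could share reads with it.

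Upk1b, a tetraspanin that pairs with uroplakins of the Upk3 type, had 2, 15 and 16 reads in sham and 2, 1 and 0 at 1 h. The 1 h group was at or under the floor of 3 counts, which makes Upk1b at least 3.2-fold lower there than in sham, and the test did not pass (adjusted p = 0.74). At 72 h it had 176, 82 and 76 reads (5.55, 2.5 and 2.42 CPM), above every sham library at 0.101, 0.777 and 0.71. This was a log2 fold change of 2.70 ± 0.66 (adjusted p = 0.00164), called in every alternative run.

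Muc16, the large membrane mucin also known as CA125, had 15, 17 and 11 reads in sham, 0, 3 and 0 at 6 h, 3, 1 and 0 at 24 h and 99, 11 and 18 at 72 h. The 6 h and 24 h groups were at or under 3 counts and did not overlap sham, so Muc16 was at least 4.41-fold lower at 6 h (adjusted p = 0.03) and at least 5.45-fold lower at 24 h (adjusted p = 0.0158). The 6 h call was lost without sham replicate 1 or 2 or without 6 h replicate 1 or 3, at adjusted p of 0.0647 to 0.104. It was also lost without a filter (0.0784) and by limma on FPKM (0.596). The 24 h call was lost without 24 h replicate 2 or 3, at 0.0588 and 0.0572, and by limma on FPKM (0.552). At 72 h the level overlapped sham (log2 difference 0.92 ± 0.70, adjusted p = 0.253), and it was -0.63 without replicate 1, the library with 99 reads. Against 24 h it had risen at least 10.3-fold at 72 h (adjusted p = 0.00142), and without 72 h replicate 1 at least 3.49-fold (adjusted p = 0.0121).

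Krt18, a type I keratin, was higher than sham at each of the 3 later times. Its CPM was 0.152, 0.363 and 0.311 in sham, 1.43, 1.67 and 1.06 at 6 h, 1.68, 1.1 and 1.39 at 24 h and 5.8, 5.57 and 4.07 at 72 h. The groups from 6 h on did not overlap sham, and the 72 h group did not overlap the 2 before it. Log2 fold changes against sham were 2.31 ± 0.46 at 6 h (adjusted p = 0.00113), 2.30 ± 0.45 at 24 h (adjusted p = 0.000568) and 4.20 ± 0.42 at 72 h (adjusted p = 7.18e-08). All 3 were called in every alternative run. Between 6 h and 24 h the log2 difference was -0.01 ± 0.36 (adjusted p = 0.988), so a change was not detectable at this spread.

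Krt8, the type II partner of Krt18, had 4, 12 and 10 reads in sham and 2 to 6 reads in each library at 10 min and 1 h. At 6 h it had 21, 115 and 11 reads (1.25, 5.5 and 0.585 CPM), of which replicate 3 overlapped the highest sham library at 0.622 CPM. The log2 fold change of 2.54 ± 0.73 passed (adjusted p = 0.0175) and rested on replicate 2, without which it was 1.09 (adjusted p = 0.192). The call was also lost without sham replicate 1 (0.0734) or 3 (0.056), without a filter (0.0604), with only the 6 libraries compared (0.0849) and by limma (0.171). At 24 h all libraries lay above sham at 2.42, 1.2 and 0.67 CPM, a log2 difference of 1.76 ± 0.76 that missed the threshold (adjusted p = 0.0714) but passed by DESeq2 (0.0302). At 72 h Krt8 had 8.42, 3.65 and 4.77 CPM and a log2 fold change of 3.71 ± 0.71 (adjusted p = 0.000239), called in every alternative run. Krt8 shares 101 exon bases with a transcript on the other strand, Gm36026, and processed pseudogenes of Krt8 and Krt18 could share reads with both genes.

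Krt19, a small type I keratin that lacks the usual tail domain, had 8, 19 and 22 reads in sham and 0, 4 and 1 at 1 h. The 1 h libraries lay below all sham libraries, with a log2 difference of -3.03 ± 1.00 that did not pass (adjusted p = 0.551). From 1 h to 6 h it rose by 3.26 ± 0.98 (adjusted p = 0.024), to 0.357, 1.91 and 0.426 CPM, levels that overlapped sham. The call was lost without 6 h replicate 2 (log2 difference 2.03, adjusted p = 0.16) and without 1 h replicate 1 (2.61, 0.0928) or 3 (3.04, 0.0792). At 72 h Krt19 had 8.23, 2.95 and 3.08 CPM against 0.404, 0.985 and 0.977 in sham, a log2 fold change of 2.58 ± 0.59 (adjusted p = 0.00105). Without 72 h replicate 1 it was 1.92 (adjusted p = 0.00799).

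**Figure D2:**
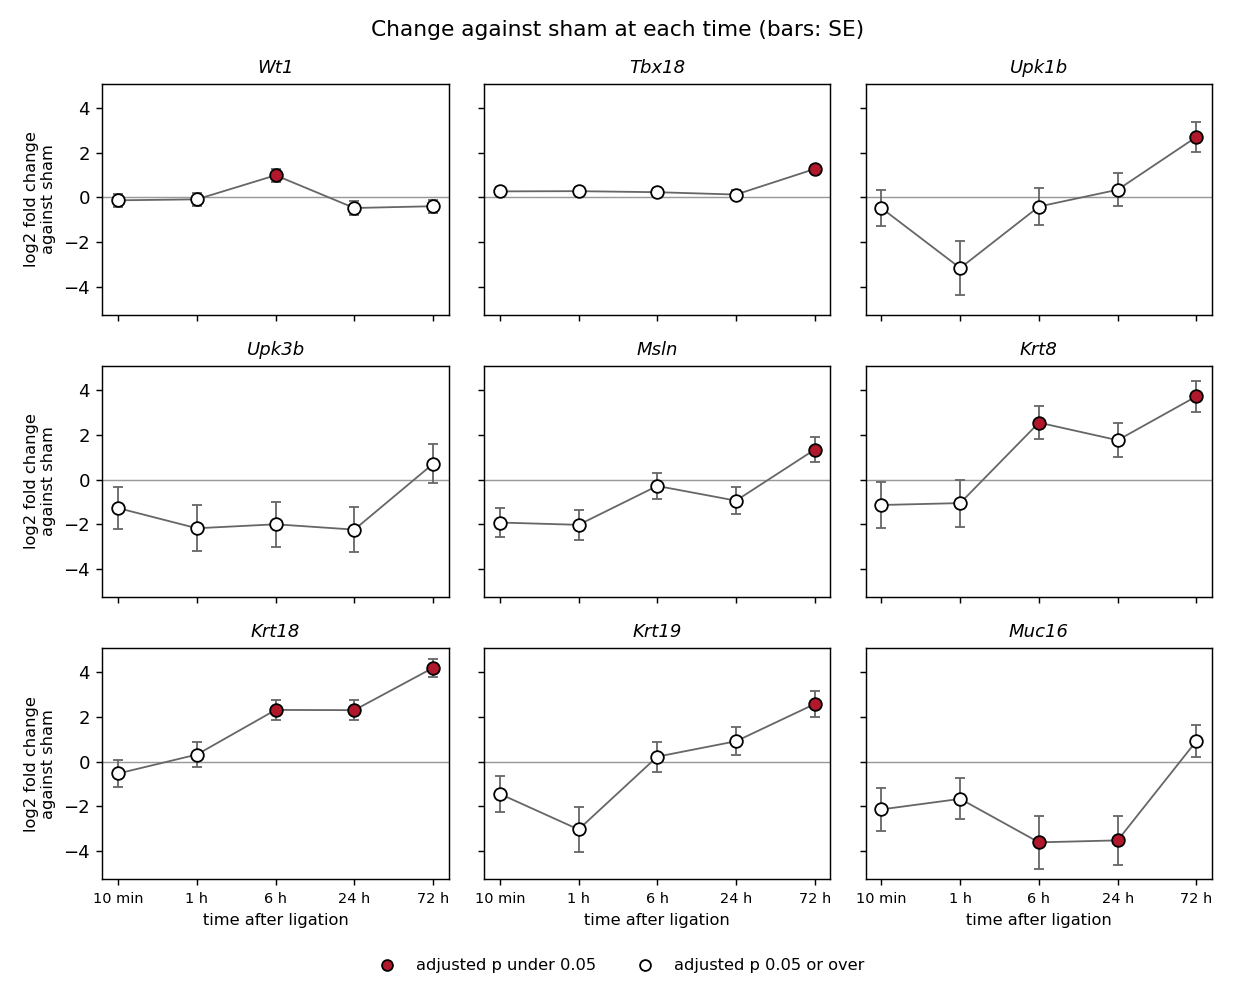
Log2 fold change against sham (y axis) at 5 times after ligation (x axis) for each gene, from the edgeR fit over 18 libraries; bars are the SE and filled points have an adjusted p under 0.05. No point is filled at 10 min or 1 h, 4 are at 6 h, 2 at 24 h and 6 at 72 h. Fitted values of Upk1b at 1 h and Muc16 at 6 h and 24 h come from groups at or under 3 counts and are no measure of size.

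Set beside all genes, the counts were as follows. At 10 min 0 of 9 members were called by edgeR, where 0.0736% of all genes were, with 2 members (Msln and Muc16) and 7.01% of all genes at an unadjusted p under 0.05 and 0 members called by DESeq2 or by limma on FPKM. At 1 h 0 were called against 0.294% of all genes, with 3 members (Upk1b, Msln and Krt19) and 5.51% of all genes at an unadjusted p under 0.05, and again 0 by DESeq2 or limma. In 5 members (Upk1b, Upk3b, Msln, Krt19 and Muc16) the 3 libraries at 1 h all lay below sham, a pattern found in 8.66% of all genes. The median log2 difference of the 9 members was -1.14 at 10 min and -1.66 at 1 h, against 0.01 and -0.01 over all genes tested. With Upk1b at 1 h set to its bound the median stayed at -1.66.

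At 6 h 4 of 9 members were called against 28.4% of all genes, at 24 h 2 against 43.8% and at 72 h 6 against 66.4%. At 72 h all 6 were higher, where 34.2% of all genes were called higher and 32.2% lower. The median of the members at 72 h was 1.34 on the log2 scale, against 0.03 over all genes. In the F test over the 6 groups 9 of 9 were called, as were 78.4% of all genes. All comparisons with sham share the same 3 sham libraries, of which replicate 1 had the lowest levels of Upk1b, Upk3b, Msln, Krt8, Krt18 and Krt19.

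Between consecutive times most movement came last. From 10 min to 1 h 0 members were called against 0.307% of all genes, with 0 at an unadjusted p under 0.05 and 0 by DESeq2 or limma. From 1 h to 6 h 4 were called, all higher (Wt1, Krt8, Krt18 and Krt19), against 14.5% of all genes called higher. From 6 h to 24 h only Wt1 was called, lower, against 13.7% of all genes called lower. From 24 h to 72 h 8 were called, all higher and all but Wt1, against 24.4% of all genes called higher. Their log2 rises ran from 1.14 in Tbx18 to 2.94 in Upk3b, beside Muc16, whose 24 h group was under the floor. Without 72 h replicate 1 that count was 5, with Upk3b, Krt8 and Krt19 lost. Between 6 h and 72 h 8 members were called, 7 of them higher and Wt1 lower, against 63% of all genes called in either direction, and Krt8 did not pass (log2 difference 1.17 ± 0.58, adjusted p = 0.0881).

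Within groups, 6 of the members went up and down together from mouse to mouse. Deviations of log2 CPM from the group mean were compared over the 18 libraries, which share depth and scaling between genes, as a description with no test. Among Upk1b, Upk3b, Msln, Krt8, Krt19 and Muc16 the 15 pairs had Pearson r from 0.46 to 0.89, with a median of 0.78. Upk3b and Msln had r = 0.89 (Spearman rho 0.87), and 0.87 without the 2 libraries farthest from the median of Upk3b. Upk3b and Krt8 had r = 0.89 (rho 0.93), and 0.87 without those 2. Wt1 had r from -0.23 to 0.20 with the 8 others and Tbx18 from -0.22 to 0.27. Krt18 lay between, with r from 0.27 to 0.66 against the 6. These 6 were grouped after their correlations had been seen.

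The mean deviation of 4 of them, Upk1b, Upk3b, Msln and Krt19, was lowest in the third 24 h mouse, at -1.45 on the log2 scale, and highest in the second 6 h mouse, at 1.42. That 24 h library had a summed leukocyte marker level of 868 CPM, against 506 and 467 in the other 24 h libraries, and a cardiomyocyte level of 20248 against 30750 and 28299. The mean deviation was 1.02 in replicate 1 at 72 h and -0.94 in replicate 1 of sham. In the library with atrial genes it was -0.85, so that library was low in these genes and high in Wt1. Over 18 libraries this mean deviation had r = 0.66 (rho 0.69) with the other epicardial and mesothelial genes described below. It had r = 0.60 (rho 0.46) with cardiomyocyte markers, -0.59 (rho -0.65) with endothelial markers and -0.45 (rho -0.41) with leukocyte markers. Without the 2 libraries farthest out these were 0.66, 0.59, -0.48 and -0.32. These genes thus moved between mice of 1 group with markers of other cell types, whose part in the results was not tested.

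**Figure D3:**
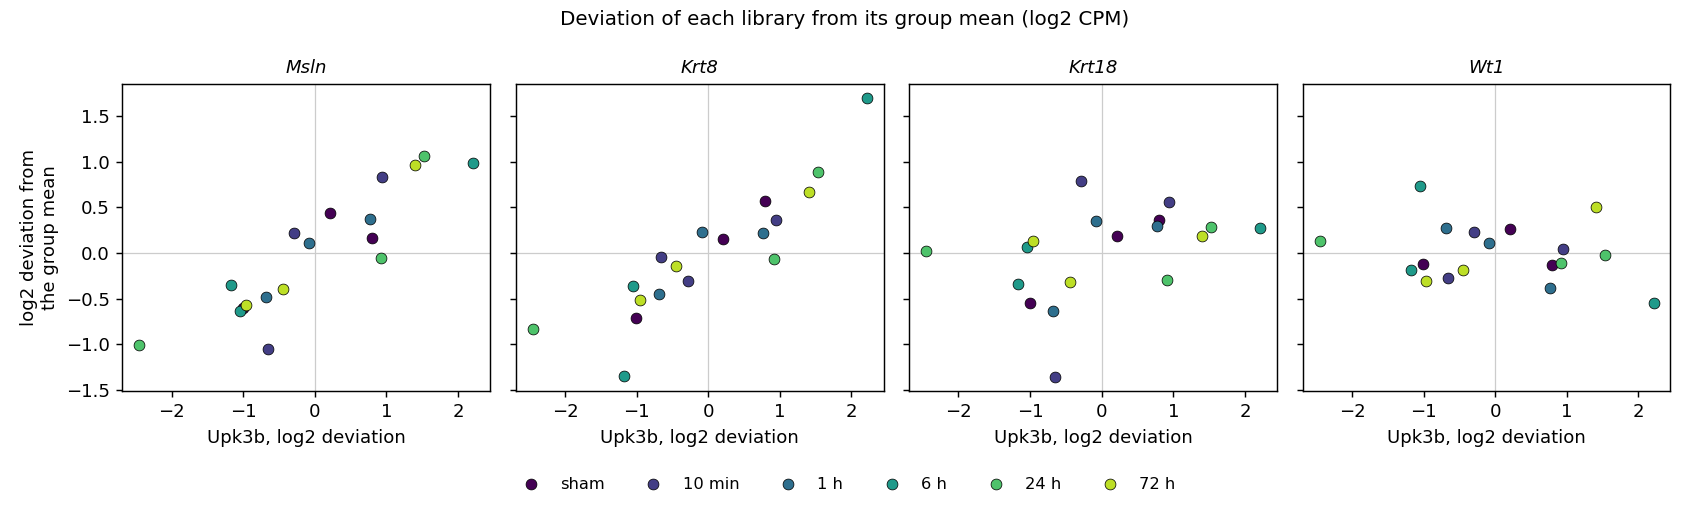
Each point is 1 of 18 libraries; the x axis is the deviation of Upk3b from its group mean and the y axis that of Msln, Krt8, Krt18 or Wt1 (log2 CPM), coloured by group. Msln and Krt8 follow Upk3b along the diagonal (r = 0.89 for both), Krt18 follows less closely (r = 0.39) and Wt1 does not (r = -0.22).

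Because Krt8 followed Msln and Upk3b between mice, its reads were set against theirs within each library. This ratio was chosen after the values had been seen and is given with no test. In sham there were 4.26, 4.84 and 4.17 Krt8 reads per 100 reads of Msln and Upk3b, from 4, 12 and 10 Krt8 reads. With so few reads the exact 95% intervals for counting error reached from 1.14 to 11.3 in replicate 1, from 2.47 to 8.61 in replicate 2 and from 1.97 to 7.8 in replicate 3, so the closeness of the 3 values is not itself a measurement. At 10 min the values were 4.76, 4.55 and 10.3, from 2 to 6 Krt8 reads, and at 1 h 11.9, 7.41 and 9.09, from 2 to 5 Krt8 reads. They were 65.6, 62.8 and 26.2 at 6 h, 44.1, 42 and 86.7 at 24 h and 23.9, 40.3 and 41.8 at 72 h. The intervals at 10 min and 1 h overlapped those of sham, whereas the lower limits of all 9 libraries from 6 h on, at 12.2 or more, lay above the sham limits. These intervals leave out the spread between mice, so their separation is no test of a difference between groups. The geometric mean was 10.8 times that of sham at 6 h, 12.3 times at 24 h and 7.77 times at 72 h. The ratio at 72 h was thus high both in replicate 1, with 1117 reads of Msln and Upk3b, and in replicates 2 and 3, with 298 and 359. Krt8 over Msln alone gave log2 ratios to sham of 2.49, 2.87 and 2.56 at 6, 24 and 72 h, beside 3.43, 3.62 and 2.96 for the form above.

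**Figure D4:**
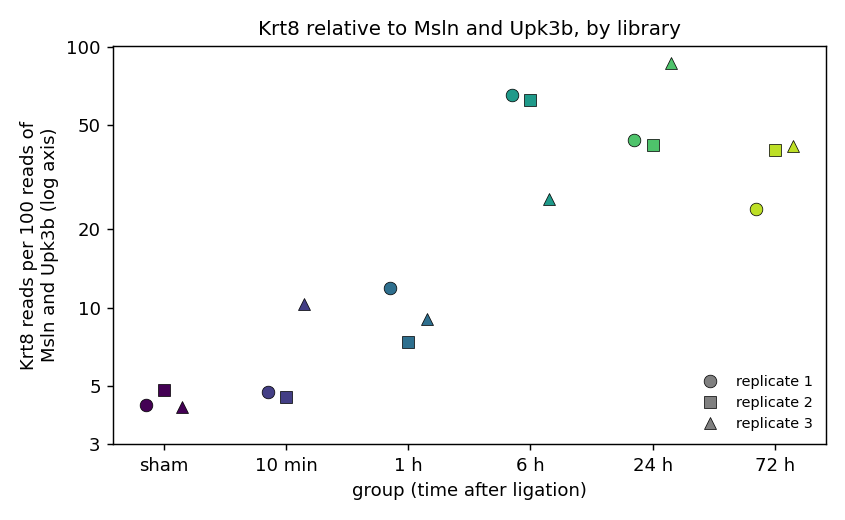
Krt8 reads per 100 reads of Msln and Upk3b (y axis, log scale) in each library, by group (x axis); symbols are the 3 replicates. Sham libraries lie at 4.17 to 4.84 and the 9 libraries from 6 h on at 23.9 to 86.7.

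Other genes of the epicardium and mesothelium, from a list of 15 of which 14 were tested, moved mostly upward at 72 h: 10 were called higher and 1 lower, with a median log2 fold change of 2.47, also with genes near 0 in sham set to their bounds. At 6 h 4 were higher and 1 lower, and at 24 h 5 higher and 4 lower. Over all genes 16.3% were called higher and 12.2% lower at 6 h. The shares were 23.7% and 20.2% at 24 h, and 34.2% and 32.2% at 72 h. Of the list, Bnc1 and Krt7 passed the filter only through the 72 h group, so their calls there are no separate support. Fibroblast and leukocyte markers also rose at 72 h, and the part of other cell types in the rises of this list was not tested. Aldh1a2, which makes retinoic acid, was already higher at 6 h: its mean was 4 CPM in sham, then 27.3 (6 h), 60.0 (24 h) and 49.4 (72 h) (adjusted p = 6.65e-06, 2.01e-07 and 1.29e-08). Other genes of the list fell early: Nkain4, the 1 gene called lower at 6 h, had log2 fold changes of -2.19 at 6 h and -1.76 at 24 h (adjusted p = 0.0112 and 0.0148). Gpm6a had -1.66 at 24 h (adjusted p = 0.00114). The median of the list was 0.39 at 6 h and -0.20 at 24 h. Aldh1a2, Nkain4, Gpm6a and Lrrn4 were picked for their courses after the values were seen. The mesothelial gene Lrrn4 had 6, 15 and 9 reads in sham and 233, 48 and 49 at 72 h (log2 fold change 2.80 ± 0.75, adjusted p = 0.00362), and replicate 1 was again highest. Dmkn, an epithelial secreted protein, had at most 2 reads in sham and 200, 85 and 64 at 72 h, at least 24.8-fold higher (adjusted p = 9.94e-06) and at least 15.7-fold without replicate 1. Cdh1, the epithelial cadherin, had 0 reads in all sham libraries and 21, 45 and 39 at 72 h, at least 7.43-fold higher (adjusted p = 0.00179). Its highest library was replicate 3 at 24 h with 167 reads, the one lowest in Upk3b, so Cdh1 did not follow the mesothelial members there. Podxl, a sialomucin also of endothelium, fell from 328 ± 24.1 CPM to 124 ± 23.0 (log2 fold change -1.40 ± 0.17, adjusted p = 7.27e-07).

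Among 6 transcription factors of epithelial-to-mesenchymal transition, the process by which epicardial cells can leave the layer, 5 were called higher and 0 lower at 72 h. The shares of all genes called at that time were 34.2% higher and 32.2% lower. Snai1 went from 2.1 ± 0.103 CPM to 20.3 ± 2.25 (log2 fold change 3.27 ± 0.29, adjusted p = 2.75e-08), Twist1 from 3.3 ± 0.598 to 17.6 ± 1.16 (2.41 ± 0.16, adjusted p = 4.9e-10) and Twist2 from 0.189 to 1.01 (2.35 ± 0.48, adjusted p = 0.000271). These factors are also expressed by fibroblasts, and 6 of 6 fibroblast markers were called higher at 72 h, their summed level going from 773 to 836 CPM in sham to 6689 to 8857. Of 10 other keratins 4 were tested and 3 were higher at 72 h: Krt7, Krt80 and Krt14. Krt7, a partner of Krt19 in simple epithelia, had 1, 5 and 7 reads in sham and 164, 43 and 61 at 72 h (log2 fold change 3.70 ± 0.75, adjusted p = 0.000316). Krt80 had a log2 fold change of 2.67 ± 0.29 (adjusted p = 1.99e-07), and Krt14, with at most 1 read in sham, was at least 11.3-fold higher (adjusted p = 9.66e-05), and at least 7.02-fold without 72 h replicate 1. Outside 72 h Krt7 was over the filter minimum of 0.459 CPM only in replicate 2 at 6 h (0.813) and replicate 1 at 24 h (1.12). Krt14 averaged 0.509 ± 0.456 CPM at 6 h and at most 0.0983 in groups other than 6 h and 72 h. Krt7 and Krt14 thus passed the filter only through the 72 h group, and their calls there are no separate support.

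Of the other uroplakins only Upk1a was tested, and it was called lower, from 0.456 ± 0.16 to 0.209 ± 0.0986 CPM at 72 h (log2 fold change -1.11 ± 0.46, adjusted p = 0.04), while Upk1b rose. Upk1a had only 6, 12 and 10 reads in sham and 4, 6 and 10 at 72 h, and the CPM ranges of the groups overlapped. Of the other membrane mucins 2 were tested and both were higher at 72 h: Muc1, at 2.43 ± 0.48 (adjusted p = 0.000233), and Muc15, which had 0 reads in sham and was at least 7.95-fold higher (adjusted p = 0.000343). Muc15 averaged 0 CPM up to 6 h and 0.126 at 24 h, under the filter minimum of 0.459. It was thus tested only through its 72 h level, and its call there is no separate support. Of 6 markers of other epithelia 4 were too low to be tested. Epcam had at most 5 reads in any library and Esrp1 at most 1, and Calb2, used as a marker of human mesothelium, at most 1. Of the tested pair Cldn3 was higher at 72 h (2.53 ± 0.63, adjusted p = 0.00161), and Grhl2, which had 2.69 CPM in sham, was lower (-2.39 ± 0.43, adjusted p = 7.47e-05). Cldn3 averaged at most 0.201 CPM outside 72 h and so also passed the filter only through that group.

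Markers of other cells moved from 6 h on, beside the changes above. Of all genes, 16.3% were called higher and 12.2% lower at 6 h, 23.7% and 20.2% at 24 h, and 34.2% and 32.2% at 72 h. At 6 h 4 of 7 tested leukocyte markers were higher, 1 of 7 cardiomyocyte markers was lower, and of 6 fibroblast markers 1 was higher and 2 lower. At 24 h 6 of 7 leukocyte and 5 of 5 cell cycle markers were higher, and 5 of 7 cardiomyocyte, 3 of 6 endothelial and 3 of 5 smooth muscle and pericyte markers were lower. At 72 h most lists had moved. All 7 cardiomyocyte markers were lower, led by Myl2 (-2.32 ± 0.17, adjusted p = 2.17e-09), Pln and Tnni3, with a summed level of 46702 to 51640 CPM in sham and 11110 to 14855 at 72 h. All 7 tested leukocyte markers were higher, led by Cd68 (4.78 ± 0.20, adjusted p = 5.42e-12), Itgam and Lyz2, with sums of 178 to 195 and 2526 to 3335 CPM. Of 6 fibroblast markers Col1a1 (5.58 ± 0.26, adjusted p = 1.72e-11), Col1a2 and Lum rose most. Of 6 endothelial markers 5 were lower, by -1.22 ± 0.16 in Kdr (adjusted p = 1.85e-06), and Tie1 and Emcn followed. Of 5 smooth muscle and pericyte markers 4 were lower, among them Myh11, Kcnj8 and Rgs5, and Cnn1 was higher, while Tbx18 rose. All 5 cell cycle markers were higher, with Mki67 at 6.18 ± 0.43 (adjusted p = 9.57e-09), beside Top2a and Ccnb1. Of 3 tested atrial markers Nppa was higher (2.06 ± 0.37, adjusted p = 0.000161), and Myl7 and Myl4 were not called (adjusted p = 0.56 and 0.78). Of 2 tested lung markers Ager was higher and Hopx lower. Their sham levels were 0.383 and 224 CPM, and the log2 fold change of Hopx was -2.21, near that of Myl2. The pair thus did not move as 1 cell type. Of the 4 adipocyte markers 0 were tested, and their sum was at most 0.478 CPM in any library. The part of these cell types in the members' changes was not tested.

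As a description, each member's log2 CPM over the 18 libraries was set against that of 11672 genes (mean counts of 50 or more), and the 3 with the highest Pearson r are named. For Tbx18 they were Gpm6b (r = 0.95), Bicc1 (0.94) and Tmem37 (0.93). For Krt18 they were Ms4a6c (0.95), Ptk2b (0.94) and Ifi211 (0.94). For Krt8 they were Rpl23a (0.91), Rps7 (0.89) and Ms4a6d (0.89), and for Krt19 Bud31 (0.90), Sept10 (0.89) and Tbca (0.88). Upk1b was followed by Slc1a3, Natd1 and Purg (0.87 each), Upk3b by Tpmt (0.87), Steap3 (0.85) and Igfbp5 (0.84), and Msln by Cyb5a (0.84), Arl1 (0.82) and Trappc3 (0.80). Wt1 was followed by Zfp335, Kazn (0.84 each) and Amot (0.83). Muc16, with a mean under 20 counts, was not ranked. These values take in the course over time, which members and genes share. For deviations from group means, the genes most like the mean of Upk1b, Upk3b, Msln and Krt19 were Gpt2, Dnaja3, Rab28 (0.90 each), Foxo6os, Trak1, Cbr2 (0.89 each), Dlat, Stard7, Syt7 and Pde6d (0.88 each), none of which was in the lists above.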

How the data were processed

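The authors deposited read counts per Ensembl gene, as whole numbers, and FPKM values, for 18 libraries. Per the submitters' processing notes, adapters were trimmed with cutadapt 1.18, reads aligned with HISAT2 2.1.0 to mm10 and counted with featureCounts; the use of strand is not given in the sources used here. The deposited FPKM columns of replicates 2 and 3 at 6 h held each other's counts, so FPKM is used only by group: for means, SD and ranges, and in limma, which compares groups. No value differed between series and sample tables (0 differences), and 0 columns could not be matched.

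Symbols and positions come from GENCODE M21 (30512 IDs matched, 71 did not). The counts were fitted with edgeR 4.0.16 under R 4.3.3 (filterByExpr, TMM, robust glmQLFit with 1 mean per group over 18 libraries, two-sided glmQLFTest), with Benjamini-Hochberg adjustment over 16311 genes. The script was tested on simulated data. Alternatives were library totals, RLE scaling, no filter, at least 10 counts in 3 libraries, the replicate number as a block, only the 6 libraries compared, leaving out each library, DESeq2 1.42.0, and limma 3.58.1 on log2(FPKM + 1). Within-group deviations used log2 CPM with a prior count of 2. A fold against a group with at most 3 counts per library is a bound against 3 counts per library, which covers counting error only, since no molecular identifiers are described. The edgeR p-values of the main fit rest on the spread between the 3 mice of a group, estimated over all 6 groups together and with information shared between genes. The SE of an edgeR log2 fold change was derived from its test, as the absolute log2 fold change over the square root of the F value. It was not estimated separately. All members are named; of other lists, up to 3 called genes with the largest rise and fall at 72 h, and others are marked as chosen after their values were seen. Members and lists were chosen with earlier results of these data known.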

Additional observations from a re-analysis of the deposited data

Results flagged for a closer look

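The effect against sham differed between 2 times, by the test of the difference itself (edgeR, adjusted p under 0.05), in 21 instances over all 9 members. From 1 h to 6 h the log2 differences were 1.07 in Wt1, 3.60 in Krt8, 1.99 in Krt18 and 3.26 in Krt19. From 6 h to 24 h Wt1 differed by -1.46. From 24 h to 72 h the differences were 1.14 in Tbx18, 2.36 in Upk1b, 2.94 in Upk3b, 2.28 in Msln, 1.96 in Krt8, 1.89 in Krt18, 1.66 in Krt19 and 4.44 in Muc16. From 6 h to 72 h they were -1.38 in Wt1, 1.04 in Tbx18, 3.11 in Upk1b, 2.70 in Upk3b, 1.62 in Msln, 1.88 in Krt18, 2.35 in Krt19 and 4.53 in Muc16. The fitted values of Muc16 come from groups at or under 3 counts at 6 h and 24 h and depend on the prior count; as bounds, Muc16 was at least 10.3-fold higher at 72 h than at 24 h and at least 8.36-fold higher than at 6 h, and without 72 h replicate 1, which had 99 of its reads, at least 3.49-fold and 2.82-fold. From 6 h to 72 h, without that library, Upk3b had 1.64 (adjusted p = 0.171) and Msln 0.96 (adjusted p = 0.147), so neither was called, and both calls were also lost without 6 h replicate 1 or 3, without a filter and with only the 6 libraries compared. Without 6 h replicate 2 they were 5.05 and 2.33. The fitted log2 differences of Upk3b, Msln and Muc16 from sham were negative at 24 h (-2.24, -0.95 and -3.52) and positive at 72 h (0.70, 1.34 and 0.92). Of these values only the 24 h value of Muc16 and the 72 h value of Msln passed the test against sham. Without 72 h replicate 1 the 72 h values were -0.37 in Upk3b, 0.67 in Msln (adjusted p = 0.295) and -0.63 in Muc16, so for Upk3b and Muc16 the positive sign rested on that library.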

How the results depend on the processing

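The numbers of members called were within 1.5 times of those reported under library size scaling, RLE scaling, the stricter filter of at least 10 counts in 3 libraries and DESeq2. They were not in the following cases. With only the 6 libraries compared, 1 member (Msln) was called at 10 min and 1 at 1 h in place of 0, and 2 at 6 h in place of 4. Without a filter 2 were called at 6 h. By limma on log2(FPKM + 1), 1 was called at 6 h, 1 at 24 h and 1 from 1 h to 6 h. Leaving out 1 library gave 1 to 4 at 6 h, 1 to 2 at 24 h, 1 to 2 from 6 h to 24 h and 5 to 8 from 24 h to 72 h. The calls of Krt18 at 6, 24 and 72 h and of Tbx18, Upk1b, Krt8 and Krt19 at 72 h were kept in every one of these fits. The cause of the other changes was not tested.

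Some differences, not all of them near 0, turned sign in other fits, and no called difference did. With library size scaling the log2 differences were 0.18 for Wt1 at 72 h, -0.028 for Tbx18 from 10 min to 1 h, and, from 6 h to 24 h, 0.21 for Tbx18, 0.034 for Upk3b and 0.28 for Krt18. By limma they were -0.0024 for Krt19 at 6 h, 0.086 for Wt1 at 72 h, -0.020 for Tbx18 from 10 min to 1 h, -0.033 for Upk3b from 1 h to 6 h, and, from 6 h to 24 h, 0.10 for Tbx18, 0.037 for Upk3b and 0.14 for Krt18. Without a filter Krt18 had 0.0031 from 6 h to 24 h.

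Leaving out 1 library, the ranges that included both signs were, against sham, -0.25 to 0.012 for Wt1 and -0.94 to 0.0081 for Krt18 at 10 min, -0.23 to 0.078 for Wt1 at 1 h, -1.0 to 0.58 for Krt19 at 6 h, -0.011 to 0.21 for Tbx18 and -0.41 to 0.83 for Upk1b at 24 h, and -0.37 to 1.14 for Upk3b and -0.63 to 1.38 for Muc16 at 72 h. From 10 min to 1 h they were -0.095 to 0.21 for Wt1, -0.22 to 0.12 for Tbx18, -0.48 to 0.49 for Msln, -0.10 to 0.43 for Krt8 and -0.068 to 1.17 for Muc16. From 1 h to 6 h they were -0.15 to 0.18 for Tbx18 and -2.17 to 0.66 for Upk3b. From 6 h to 24 h they were -0.87 to 2.11 for Upk3b, -1.35 to 0.053 for Msln, -1.36 to 0.66 for Krt8, -0.17 to 0.15 for Krt18 and -1.13 to 3.46 for Muc16. From 24 h to 72 h Wt1 had -0.22 to 0.23.

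Deviations of same-numbered libraries had r from -0.418 to 0.364, with a mean of -0.016, 0.0095 and -0.016 for replicate numbers 1, 2 and 3. Differently numbered libraries were not compared, so whether the mice were handled in sets cannot be told from these values. With the replicate number as a block, Msln at 72 h was not called (1.20, adjusted p = 0.0668), Krt8 from 6 h to 72 h was (adjusted p = 0.041), and Krt18 and Muc16 from 6 h to 24 h were 0.00048 and -0.040. The block changed no other call among the 9 genes. Scaling by library totals moved the share of higher calls over all genes from 57.2% to 40.6% at 6 h, from 54% to 75.5% at 24 h and from 51.4% to 79.9% at 72 h. Upk1b, Krt8, Krt18, Krt19 and Muc16 had at most 22 counts in any library of sham, 10 min or 1 h, and differences of the size seen at these times were not detectable at this depth and spread. The ratio of Krt8 to Msln and Upk3b, and its other forms, were chosen after seeing the data.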
